A study of Mus musculus with 4 samples.

Results

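The genes described here are 37 genes of the interferon response, taken by name from the probes of a whole-genome mouse array, and read in the lungs of Fgf8 hypomorph and wild type fetuses. Of the 37 names, 36 stood on the array. They were carried by 55 probes of 41174, and all 55 probes were kept. Irf9 was not printed under that name and is described from the older name Isgf3g, by its RefSeq accession. The probes named Ifi27 matched, by accession, the RefSeq gene Ifi27l2a, except the probe at chr12:103856768-103856827, which matched no RefSeq gene.

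The study compared RNA of whole lung lobes, freed of large airways and vessels, from E18.5 fetuses, shortly before birth. The mutants were labelled fgf8 hypomorph, written Fgf8H/- in the extraction notes, and the controls were wild type littermates, written Fgf8+/+. The sample titles write the mutant side as AP/N, letters that the labels do not explain. Both genotypes were on the strain background labelled c57nl7/sv129. Each RNA sample pooled 3 lungs of 1 genotype, and each of 4 two-colour Agilent arrays set 1 hypomorph pool in Cy5 against 1 wild type pool in Cy3. No array had the reverse labelling, and a dye effect shared by all arrays cannot be told apart from the genotype. The 4 arrays are called replicates 1 to 4, as in the labels, and each ratio below is hypomorph over wild type on the log2 scale, so that values below 0 are lower in the hypomorph.

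Interferons are secreted proteins, and cells make those of type I when they detect viral or bacterial nucleic acid. Type I interferons bind the Ifnar1 and Ifnar2 receptor chains and interferon-gamma binds Ifngr1 and Ifngr2, and Janus kinases on these receptors then phosphorylate transcription factors. A complex that holds Stat2 and Irf9 binds a promoter sequence called the interferon-stimulated response element, and interferon-gamma also acts through a shorter one called the gamma-activated site. The genes that follow encode antiviral proteins, more sensors and transcription factors, and inhibitors of the pathway. The lung carries this programme in epithelium, endothelium and resident macrophages.

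On each array, 43379 spots were not controls. Between 32491 and 33744 of them were well above background in the wild type channel, and between 32731 and 34519 in the hypomorph channel. The ratios of 30008 tested probes correlated between arrays with r from 0.51 to 0.76 over the 6 pairs. The arrays lay on 1 slide read in 1 scan. Fgf8 itself had ratios of -0.31, -0.23, -0.09 and -0.09 on replicates 1 to 4, a mean of -0.18 ± 0.11 (SD, n = 4 arrays) with an adjusted p of 0.0572, and its second probe was not well above background on any array. The labels do not say where these probes lie relative to the changed allele. RNA came from whole lung pools, so fewer cells of a type and less RNA per cell cannot be told apart in any value below.

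Of the 36 genes, 35 could be tested by their brightest probe. A gene was called when limma's moderated test of the mean ratio against 0 gave an adjusted p under 0.05 over all probes tested. Ifitm2 and Oasl1 were called higher in the hypomorph, and Ifitm1, Ifnar2, Irf3, Isg20 and Usp18 were called lower. These 7 genes are 20% of those tested, beside 26.8% of all 20081 genes (13.7% higher and 13.1% lower). Over all probes kept, 9 of 51 tested were called, 2 higher and 7 lower, beside 24.9% of all probes. With all 4 arrays the share of called genes was thus below that in the whole table. Without replicate 3, 5 of 35 were called, beside 8.9% of all genes, and without replicate 4, 8 of 36, beside 17.4%. Unadjusted p-values of the same test were under 0.05 for 13 of the 35 genes. The share of all genes under that cut was not counted, so this number shows no excess.

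The mean change was small for most of these genes, and the arrays did not share a direction. The median ratio over the 35 genes was -0.06, beside -0.0028 over all genes, with 19 genes below 0 and 16 above. Ifitm1 alone passed 1.5-fold, which 2.4% of all genes did. The spread between arrays was wide: the median SD over 4 arrays was 0.22 for the 33 genes with values on all of them, beside 0.11 for all genes. The ratios were highest on replicate 4 in 28 of 33 genes, beside 26.3% of all genes, and lowest on replicate 3 in 22 of 33, beside 19.3%. The calls depended on the scaling of the arrays. With each array centred on its median in place of loess, which leaves a trend of ratio with brightness in place, the median over all genes was 0.13 and 53.1% of genes were called. In that setting 17 of the 35 interferon response genes were called, 16 higher and 1 lower.

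**Figure D1:**
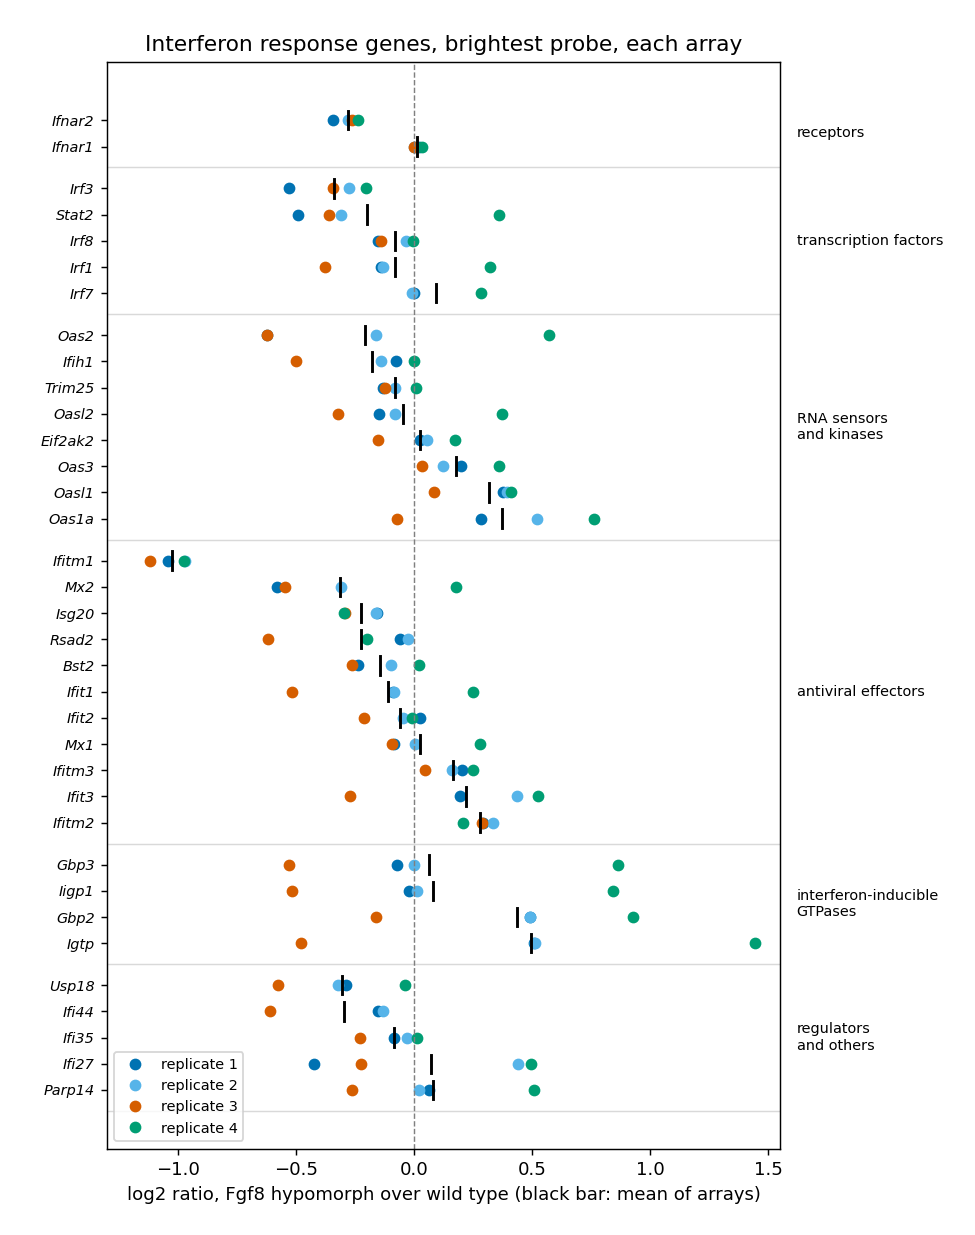
Each point is the log2 ratio of hypomorph over wild type (x axis) of 1 gene's brightest probe on 1 array, coloured by replicate, and black bars are means over arrays. Genes are grouped by role on the y axis. Replicate 4 lies farthest right in 28 of the 33 genes with 4 values and replicate 3 farthest left in 22, while Ifitm1 lies between -1.12 and -0.97 on all 4 arrays.

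Among the receptors, Ifnar2 was lower in the hypomorph and Ifnar1 was not called. Ifnar2, the ligand-binding chain of the type I interferon receptor, read 13.37, 13.38, 13.35 and 13.25 in wild type pools 1 to 4 and 13.03, 13.10, 13.09 and 13.01 in the hypomorph pools, as log2 intensity. Every hypomorph pool was below every wild type pool. The ratios were -0.34, -0.28, -0.26 and -0.24, a mean of -0.28 ± 0.05 (SD, n = 4 arrays), 1.21-fold lower, with an adjusted p of 0.00813, but 0.02 with median centring in place of loess. The probe lies at chr16:91282658-91282717 in build mm8, the build of all probe positions here. A second Ifnar2 probe, at chr16:91294093-91294152, had ratios of -0.26, -0.11, -0.18 and -0.03 and an adjusted p of 0.0859. Ifnar1, the partner chain, had ratios between -0.0023 and 0.03, a mean of 0.01 ± 0.02 (SD, n = 4 arrays), and its pools overlapped.

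Ifngr1, the ligand-binding chain of the interferon-gamma receptor, was well above background on all 4 arrays in both channels but was not tested, because the local background of its Cy5 spot was marked as an outlier on replicates 1 and 4. Its levels were 15.97, 15.91, 15.78 and 15.91 in the wild type pools and 15.58, 15.61, 15.60 and 15.45 in the hypomorph pools. The hypomorph pools were all lower. With marked spots kept, its ratios were -0.40, -0.30, -0.17 and -0.45, a mean of -0.33 ± 0.12 (SD, n = 4 arrays), 1.26-fold lower, with an adjusted p of 0.0114 in a fit where 29% of all genes were called.

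Of the transcription factors, Irf3 was called lower and the others were not called. Irf3 is the factor that sensors of foreign nucleic acid activate to switch on the interferon beta gene. It read 13.44, 13.47, 13.41 and 13.43 in the wild type pools and 12.91, 13.20, 13.07 and 13.23 in the hypomorph pools. No hypomorph pool reached the wild type range, which spanned 0.06, while the hypomorph pools spanned 0.31. The ratios were -0.53, -0.28, -0.34 and -0.20, a mean of -0.34 ± 0.14 (SD, n = 4 arrays), 1.26-fold lower, with an adjusted p of 0.0147, but -0.04 with median centring. The second Irf3 probe gave -0.64, -0.32, -0.31 and -0.05, with a mean of -0.33 ± 0.24 and an adjusted p of 0.0468.

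Stat2, a transcription factor of the type I response, had ratios of -0.49, -0.31, -0.36 and 0.36. It was lower in the hypomorph on replicates 1 to 3 and higher on replicate 4, with a mean of -0.20 ± 0.38 (SD, n = 4 arrays) and an adjusted p of 0.31. Without replicate 4, picked for its opposite sign, its mean was -0.39 with an adjusted p of 0.0233. Leaving out an array for its sign favours a smaller p, so such values, here and below, are no support for a change. Igtp and Irf1, also with an array of opposite sign, gained no call in this way. Over all 17 other settings the Stat2 mean ran from -0.39 to 0.04 and the adjusted p reached 0.78. Irf1, a factor that interferon-gamma induces, had -0.14, -0.13, -0.38 and 0.32, again with only replicate 4 above 0. In the wild type pools the Irf1 probe read between 14.58 and 14.62, and in the hypomorph pools 14.44, 14.45, 14.25 and 14.90, so the genotypes overlapped because the hypomorph pools lay on both sides of the wild type. Its second probe had ratios of 0.20, 0.05, -0.0093 and 0.34.

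Irf8, a factor of macrophages and dendritic cells, had hypomorph pools from 12.95 to 13.05 and wild type pools from 13.06 to 13.13. They did not overlap at this brighter probe, but its mean ratio of -0.08 ± 0.07 (SD, n = 4 arrays) was not called (adjusted p 0.224). A second Irf8 probe had ratios of -0.06, -0.24, -0.11 and -0.21 and an adjusted p of 0.0623, and its pools overlapped. Irf7, which amplifies the type I response, had a value on 3 arrays: 0.001, -0.0094 and 0.28 on replicates 1, 2 and 4. Irf9, the DNA-binding partner of Stat2, had 2 probes under the name Isgf3g. The brighter had ratios of -0.26, -0.23, -0.21 and 0.13 and an adjusted p of 0.197, and the other had a mean of 0.10 ± 0.08 and an adjusted p of 0.15. Neither was called.

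Sensors and kinases of foreign RNA held 1 called gene, Oasl1, of 8. Oasl1, a member of the oligoadenylate synthetase family that restrains the making of Irf7 protein, had ratios of 0.38, 0.39, 0.08 and 0.41. All 4 lay above 0, with replicate 3 well below the others, and the mean was 0.32 ± 0.16 (SD, n = 4 arrays), 1.24-fold higher, with an adjusted p of 0.0214. Without replicate 2 the adjusted p was 0.105 and without replicate 4 it was 0.0702.

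The oligoadenylate synthetases proper make a second messenger that activates an RNA-degrading enzyme. Oas1a had ratios of 0.28, 0.52, -0.07 and 0.76, a mean of 0.37 ± 0.36 (SD, n = 4 arrays) with an adjusted p of 0.0795. Without replicate 3, picked for its opposite sign, the Oas1a mean was 0.52 with an adjusted p of 0.0426. Over all 17 other settings it ran from 0.24 to 0.53 and the adjusted p reached 0.241. Oas2 had -0.62, -0.16, -0.62 and 0.57, with a mean of -0.21 ± 0.56 and an adjusted p of 0.458. Without replicate 4, picked for its opposite sign, the Oas2 mean was -0.47 with an adjusted p of 0.047. Over all 17 other settings it ran from -0.47 to -0.07 and the adjusted p reached 0.844. These 2 enzymes of 1 family thus stood on opposite sides of 0 on replicates 1 and 2, and both were highest on replicate 4.

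Oas3 lay between 0.03 and 0.36, with an adjusted p of 0.0779, and was well above background on 3 arrays in each channel. One further probe each of Oas2 and Oas3 was not well above background on any array. Oasl2 had -0.15, -0.08, -0.32 and 0.37. Ifih1, a sensor of long double-stranded RNA, had -0.07, -0.14, -0.50 and 5e-04. Eif2ak2, a kinase that stops translation when it binds double-stranded RNA, lay between -0.15 and 0.17, and Trim25, a ubiquitin ligase that helps activate RNA sensing, between -0.13 and 0.0067. None of these 5 genes was called.

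Of 11 antiviral effectors, Ifitm1 and Isg20 were called lower and Ifitm2 higher. The Ifitm genes encode small membrane proteins that hinder the entry of enveloped viruses, and they lie in 1 cluster on chromosome 7. Ifitm1 read 12.82, 12.74, 12.97 and 13.05 in the wild type pools and 11.78, 11.77, 11.85 and 12.08 in the hypomorph pools. The lowest wild type pool stood far above the highest hypomorph pool. The ratios were -1.04, -0.97, -1.12 and -0.98, a mean of -1.03 ± 0.07 (SD, n = 4 arrays), 2.04-fold lower, with an adjusted p of 0.000888 at the probe chr7:140820876-140820935. Its mean was the rank of 38 from the lowest among 20081 genes, and it was called in each of 17 other settings, with means from -1.05 to -0.78.

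Ifitm2 went the other way, and Ifitm3 was not called. Ifitm2, read at chr7:140806333-140806392, was 13.94, 13.74, 13.82 and 13.84 in the wild type pools and 14.23, 14.07, 14.11 and 14.05 in the hypomorph pools. All hypomorph pools were above all wild type pools. The ratios were 0.29, 0.33, 0.29 and 0.21, a mean of 0.28 ± 0.05 (SD, n = 4 arrays), 1.21-fold higher, with an adjusted p of 0.00886. A second probe of that name lies at chr7:46700586-46700645, far from the first, and had ratios of 0.13, 0.09, -0.12 and -0.06. With the mean of both probes the adjusted p was 0.0637. Ifitm3 had 0.20, 0.16, 0.05 and 0.25, with an adjusted p of 0.0544. Whether probes of the Ifitm, Ifit, Oas or Gbp genes also read transcripts of their relatives was not tested.

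Isg20, an exonuclease that degrades RNA, had ratios of -0.16, -0.16, -0.29 and -0.30, a mean of -0.23 ± 0.08 (SD, n = 4 arrays), 1.17-fold lower, with an adjusted p of 0.0214, but 0.04 with median centring. Its second probe had -0.15, -0.17, -0.26 and -0.30 and an adjusted p of 0.0206. Both probes were lower on every array with loess, although their pools overlapped between genotypes. Isg20 and Ifitm2 were the only genes of the 33 with 4 values whose ratio was not higher on replicate 4 than on replicate 3.

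The other effectors were not called, and 6 of these 8 had ratios on both sides of 0. The Ifit genes encode proteins that bind viral RNA. Ifit1 had -0.09, -0.09, -0.52 and 0.25, and Ifit3 had 0.20, 0.43, -0.27 and 0.53. Ifit2 lay between -0.21 and 0.02 at its brighter probe, and its second probe had a mean of 0.05 ± 0.11 and was not called. Mx1 and Mx2 are dynamin-like GTPases that trap viral particles: Mx1 lay between -0.10 and 0.28, and Mx2 had -0.58, -0.31, -0.55 and 0.18, with an adjusted p of 0.116. Without replicate 4, picked for its opposite sign, the Mx2 mean was -0.48 with an adjusted p of 0.0228. Over all 17 other settings it ran from -0.48 to -0.12 and the adjusted p reached 0.368. Rsad2, or viperin, had -0.06, -0.03, -0.62 and -0.20, and its 2 dimmer probes had means of -0.26 and 0.06. Bst2, or tetherin, which holds budding virions to the cell, lay between -0.26 and 0.02.

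The interferon-inducible GTPases differed most between arrays. Igtp, Iigp1, Gbp2 and Gbp3 attack the vacuoles in which intracellular pathogens live, and interferon-gamma is their main inducer. None was called. Their median ratio was 0.23, 0.25, -0.50 and 0.90 on replicates 1 to 4, beside -0.02, 0.01, -0.001 and 0.0046 for all genes.

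Igtp read 12.93, 12.88, 12.83 and 12.84 in the wild type pools and 13.44, 13.40, 12.35 and 14.28 in the hypomorph pools. The wild type pools were nearly equal, with a range of 0.10, while the hypomorph pools ranged over 1.93, with pools 1, 2 and 4 above and pool 3 below the wild type. The ratios were 0.51, 0.51, -0.48 and 1.44, a mean of 0.50 ± 0.79 (SD, n = 4 arrays) with an adjusted p of 0.219. Replicate 4 exceeded replicate 3 by 1.92, or 3.80-fold, the widest such difference among the 33 genes.

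Gbp2 read 11.26, 10.99, 11.22 and 11.28 in the wild type pools and 11.75, 11.48, 11.06 and 12.21 in the hypomorph pools. Hypomorph pool 3 was again the only one below its wild type partner. The ratios were 0.49, 0.49, -0.16 and 0.93, a mean of 0.44 ± 0.45 (SD, n = 4 arrays) with an adjusted p of 0.0913. Without replicate 3, picked for its opposite sign, the Gbp2 mean was 0.64 with an adjusted p of 0.0326. Over all 17 other settings it ran from 0.27 to 0.65 and the adjusted p reached 0.237.

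Gbp3 and Iigp1 were near 0 on replicates 1 and 2 and on opposite sides of it on replicates 3 and 4. Gbp3 had ratios of -0.07, -0.0018, -0.53 and 0.86, and Iigp1 had -0.02, 0.01, -0.52 and 0.84. The Iigp1 levels were 14.50, 14.48, 14.40 and 14.16 in the wild type pools and 14.48, 14.49, 13.88 and 15.01 in the hypomorph pools. The means were 0.06 ± 0.58 and 0.08 ± 0.56 (SD, n = 4 arrays), with adjusted p-values of 0.836 and 0.788. A mean near 0 here came from 1 low and 1 high array.

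**Figure D2:**
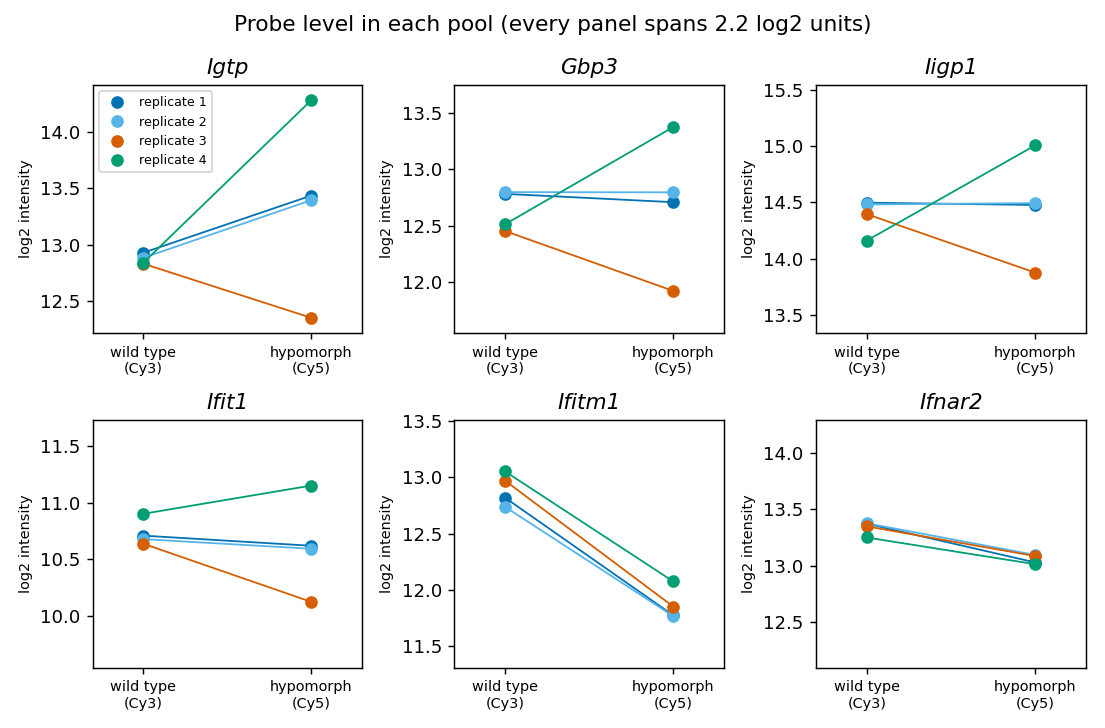
Each panel plots the level of 1 gene's brightest probe as log2 intensity (y axis, 2.2 units in every panel) in the wild type and hypomorph pools (x axis), with a line joining the pools of an array. Igtp, Gbp3, Iigp1 and Ifit1 fan out among the hypomorph pools, with pool 3 lowest and pool 4 highest, while the 4 lines of Ifitm1 and of Ifnar2 run nearly parallel and downward.

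Among the regulators and remaining genes, Usp18 was called lower. Usp18 removes the ubiquitin-like protein Isg15 from its targets and damps signalling at Ifnar2. It had ratios of -0.29, -0.32, -0.58 and -0.04, a mean of -0.31 ± 0.22 (SD, n = 4 arrays), 1.24-fold lower, with an adjusted p of 0.0453. All 4 arrays were below 0, but the call was lost in 7 of 17 other settings, among them leaving out replicate 1, 2 or 3. Parp14, an ADP-ribosyltransferase, had 0.06, 0.02, -0.26 and 0.51 at its brightest probe, and its dimmer probes had means of -0.44 ± 0.53 and 0.09 ± 0.22. Ifi44 had -0.15, -0.13 and -0.61 on replicates 1 to 3, with no value on replicate 4, where its spot was marked. Its second probe, also without a value on replicate 4, had -0.88, -0.23 and -0.25 and was not called. Ifi35 lay between -0.23 and 0.01. The probe named Ifi27 had -0.42, 0.44, -0.22 and 0.50, a split of arrays 1 and 3 against 2 and 4. Of its other 2 probes, one had -0.36, 0.43, -0.08 and 0.42, and the other had -0.39, -0.23 and 0.49 on replicates 1, 3 and 4, with its spot on replicate 2 marked.

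The order of the arrays was alike across roles. It was noticed in the data and is described here with no test. Among the 33 genes with 4 values, 19 (57.6%) had replicate 3 lowest and replicate 4 highest, beside 5.32% of all 18058 such genes. Replicate 4 exceeded replicate 3 in 31 of 33 genes (93.9%), beside 49.9% of all genes, and the median difference was 0.42, beside -2e-04. A ratio above 0 was found for 4 of the 33 genes on replicate 3 and for 25 on replicate 4. No gene of the 33 was highest on replicate 3.

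The medians over the 33 genes were -0.08, -0.03, -0.26 and 0.25 on replicates 1 to 4. The median of every role but the receptors was lowest on replicate 3 and highest on replicate 4: the transcription factors had -0.15, -0.13, -0.35 and 0.28, the RNA sensors and kinases -0.03, -0.01, -0.14 and 0.37, and the antiviral effectors -0.08, -0.05, -0.27 and 0.18. The receptors stayed between -0.16 and -0.10. Between 18 and 23 genes had replicate 3 lowest and replicate 4 highest in the other settings of background, scaling and filter, beside 5.02% to 7.12% of all genes. A ratio above 0 on all 4 arrays or below 0 on all 4 was found for 11 of 33 genes (33.3%), beside 52.2% of all genes.

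**Figure D3:**
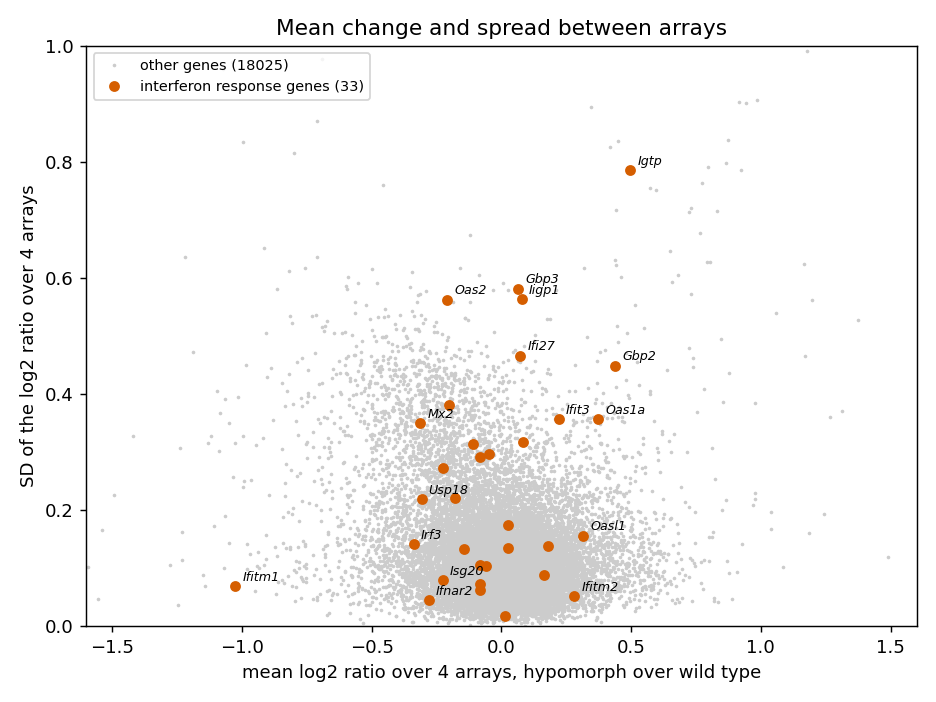
Each point is 1 gene's brightest probe, with the mean log2 ratio over 4 arrays on the x axis and its SD over the arrays on the y axis. The 33 interferon response genes (large points) are set against 18025 others, of which 9 lie outside the axes. Igtp, Gbp3, Iigp1 and Oas2 have SDs from 0.56 to 0.79, and Ifitm1 stands at the left with an SD of 0.07.

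The spread lay in the hypomorph pools more than in the wild type pools. The range of a gene's level over the 4 hypomorph pools had a median of 0.60 over the 33 genes, and over the 4 wild type pools it had a median of 0.30. For all genes both medians were 0.30. The hypomorph range was wider than the wild type range in 27 of the 33 genes, beside 50.9% of all genes, and in 28 with the processed signals of the scanner software, beside 48.1%. Hypomorph pool 4 was the highest of the 4 hypomorph pools for 28 genes (84.8%, beside 28.1% of all genes). Hypomorph pool 3 was the lowest for 21 (63.6%, beside 14.4%). Among the wild type pools the same 2 pools were less apart. Pool 4 was highest for 13 genes (39.4%, beside 32.4% of all genes). Pool 3 was lowest for 14 (42.4%, beside 17%), so a low pool 3 was more frequent than in all genes in the wild type channel too. By their brightest probes the genotypes did not overlap for 5 of the 33 genes (Ifitm1, Ifitm2, Ifnar2, Irf3 and Irf8), or 15.2%, beside 16.2% of all genes. At the second probes of Ifitm2, Ifnar2, Irf3 and Irf8 the genotypes did overlap, and Ifitm1 has no second probe. These levels are channel intensities scaled between arrays, and the pools of 1 genotype were compared across arrays.

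Promoters of these genes often held the letters of an interferon response element. Promoter sequence from RefSeq, 250 bases before to 50 after the start of each gene in assembly GRCm38.p6, was at hand for 30 of the 37 names. The letters GAAANNGAAA, searched on both strands with overlaps counted apart, stood in 14 of the 30 (46.7%), beside 3.99% of 27025 genes with such a window. The letters TTCNNNGAA of a gamma-activated site, also searched on both strands, stood in 12 (40%), beside 9.55%. In Bst2 and in Ifitm3 a match of the shorter letters overlaps one of the longer. A match describes the letters only and is not evidence of binding.

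The difference between replicates 4 and 3 had a median of 0.61 over the 14 genes with GAAANNGAAA, ranging from -0.08 to 1.92. Over 12 genes with a window and 4 values but no match the median was 0.14, with differences from -0.0022 to 0.70. The ranges overlapped. Genes without a window are in neither group, and some of them had wide differences. These were Iigp1 (1.36), Oas2 (1.19), Parp14 (0.77), Mx2 (0.72) and Ifi27 (0.72), while no other gene without a window exceeded 0.70. Whether their promoters hold the letters was not tested. For TTCNNNGAA the medians were 0.22 over 12 genes with a match and 0.46 over 14 without. The windows below, read on the strand of the gene with matched letters in capitals, come from 6 genes with a wide difference between these arrays and from 2 genes, Bst2 and Ifitm2, with a match but a narrow one. Where the letters run in the other direction, capitals show their complement.
The Igtp window is at chr11:58199496-58199555 (plus strand), from base -60 to base -1 relative to the start, where replicate 4 exceeded replicate 3 by 1.92.
Igtp: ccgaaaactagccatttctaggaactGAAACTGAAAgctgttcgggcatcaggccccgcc
The Gbp3 window is at chr3:142559977-142560036 (plus strand), from base -67 to base -8 relative to the start, with overlapping matches and a difference of 1.39.
Gbp3: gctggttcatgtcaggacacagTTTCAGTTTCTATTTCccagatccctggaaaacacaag
The Gbp2 window is at chr3:142620579-142620638 (plus strand), from base -84 to base -25 relative to the start, with a difference of 1.09.
Gbp2: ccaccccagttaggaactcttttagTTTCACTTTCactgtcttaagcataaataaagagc
The Oas1a window is at chr5:120907526-120907585 (minus strand), from base -60 to base -1 relative to the start, with overlapping matches and a difference of 0.84.
Oas1a: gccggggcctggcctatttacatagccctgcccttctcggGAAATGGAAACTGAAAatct
The Ifit1 window is at chr19:34640769-34640828 (plus strand), from base -120 to base -61 relative to the start, with separate matches and a difference of 0.77.
Ifit1: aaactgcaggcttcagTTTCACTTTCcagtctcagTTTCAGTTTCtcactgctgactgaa
The Ifit3 window is at chr19:34583365-34583424 (plus strand), from base -164 to base -105 relative to the start, with separate matches and a difference of 0.80.
Ifit3: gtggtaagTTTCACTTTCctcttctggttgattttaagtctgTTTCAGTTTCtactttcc
The Bst2 window is at chr8:71537565-71537624 (minus strand), from base -152 to base -93 relative to the start, with overlapping matches and a difference of 0.29.
Bst2: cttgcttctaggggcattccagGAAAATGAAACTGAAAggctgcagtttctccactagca
The Ifitm2 window is at chr7:140955973-140956032 (minus strand), from base -71 to base -12 relative to the start, with a difference of -0.08.
Ifitm2: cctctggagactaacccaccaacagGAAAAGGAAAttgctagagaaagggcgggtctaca
The matches of Igtp, Gbp3, Gbp2, Oas1a and Ifitm2 begin between base -59 and base -14, and those of Ifit1, Ifit3 and Bst2 between base -156 and base -85.

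Of 100 other genes of the pathway on the array, 82 were tested, and 6 were called higher and 12 lower, with 64 not called. These 18 are 22%, beside 26.8% of all genes. For the counts of each list that follow, 13.7% of all genes were called higher and 13.1% lower. Of the other receptors and kinases, 4 of 6 were called lower and none higher. Il10rb, a chain of the interferon lambda receptor, had ratios of -0.45, -0.44 and -0.44 on replicates 1 to 3 (adjusted p 0.00592), and Jak2, a kinase of the interferon-gamma receptor, had -0.33, -0.45 and -0.44 (adjusted p 0.00904), both without a value on replicate 4. Ifnlr1, the other chain of the lambda receptor, was at -0.28 ± 0.14 (SD, n = 4 arrays) and Jak1, the kinase that these receptors share, at -0.15 ± 0.05, with adjusted p-values of 0.0272 and 0.0454. Ifngr2 and Tyk2, at -0.14 and -0.18, were not called. All 6 means were below 0 with loess. With median centring Il10rb, Jak2 and Ifnlr1 were at -0.051, -0.18 and -0.031 and none of these 3 was called, and without replicate 2 the same 3 had adjusted p-values of 0.0529, 0.0716 and 0.119.

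Of 13 tested genes that sense nucleic acid and induce interferon, Cgas, a sensor of DNA in the cytosol, was called higher (0.25) and 4 were called lower. Tlr7, an endosomal sensor of RNA, had -0.29, -0.28, -0.29 and -0.32, a mean of -0.30 ± 0.02 (SD, n = 4 arrays) with an adjusted p of 0.0061. Ikbke, a kinase of Irf3, was at -0.33 ± 0.08, and Mavs, the adaptor of RNA sensing, at -0.23 ± 0.09. The fourth was Tbk1, also a kinase of Irf3, at -0.17 ± 0.05. With median centring Mavs was at -0.011. The RNA sensor Rigi and the adaptor Ticam1, which also act before Irf3, were not called, at 0.02 and 0.03.

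Among 5 other transcription factors, Irf2bp1 was called higher (0.25) and Irf2bp2 lower (-0.29), although Irf2bp2 was at 0.15 with median centring. Of 7 negative regulators, Socs3, an inhibitor of Janus kinases, was called lower at -0.42 ± 0.05 (SD, n = 4 arrays) with an adjusted p of 0.003, but at -0.077 with an adjusted p of 0.382 with median centring. Ptpn11 and Ptpn6 were not called. Of 14 ligand genes on the array, 6 were not well above background on any array, Ifnb1 among them, and of 5 tested Ifnz was called higher at 0.34 on 3 arrays. With the channels fitted separately the Ifnz mean was -0.13.

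The 46 other response genes that could be tested had a like order of the arrays. They were read in the same pools and listed with earlier results known, so they are no independent check. Their median ratios were 0.02, 0.08, -0.14 and 0.34 on replicates 1 to 4. Of 44 with 4 values, 27 had replicate 3 lowest and replicate 4 highest, beside 5.32% of all genes. Of the same 44, 42 were higher on replicate 4 than on replicate 3, beside 49.9% of all genes. Psmb8, an immunoproteasome subunit, was called higher (0.32), as were Slfn2 (0.22) and Cxcl10, a chemokine that draws T cells. Lgals3bp (-0.28) and Samhd1 (-0.50), an enzyme that depletes nucleotides, were called lower. Cxcl10 lost its call in 7 of 17 other settings, with means from 0.55 to 1.21. Samhd1 lost it in 6, with a mean of -0.10 without replicate 1 or without replicate 3 and of -0.18 with marked spots kept. With median centring Lgals3bp was at 0.014.

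The widest splits, named after their values were seen, were mostly in GTPases too. Tgtp1, the array's Tgtp, had ratios of 1.25, 1.21, -0.61 and 2.16, a mean of 1.00 ± 1.16 (SD, n = 4 arrays) with an adjusted p of 0.114. Gbp4 had 0.59, 0.71, -0.06 and 1.69, and Irgm2, the array's Iigp2, had 0.79, 0.62, -0.19 and 1.38. Ifi47 had 0.72, 0.82, -0.14 and 1.32, and Cxcl10 had 0.89, 0.75, 0.002 and 1.53. Each of these 5 genes was above 0 on replicates 1, 2 and 4, and all were lowest on replicate 3. Slfn4, with an SD of 0.62 beside 0.61 for Ifi47, differed from them. It had -0.63, -0.32, -0.43 and 0.75, and was lowest on replicate 1.

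**Figure D4:**
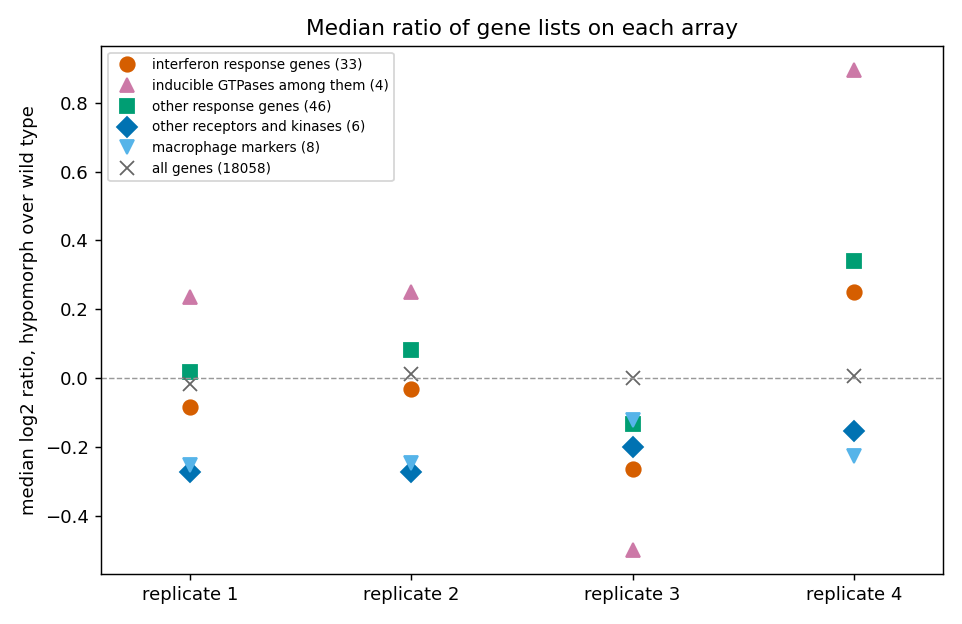
Points are medians of the log2 ratio (y axis) over the genes of a list on each array (x axis), for the interferon response genes, the 4 GTPases among them, the other response genes, the other receptors and kinases, macrophage markers and all genes. The GTPases run from -0.50 on replicate 3 to 0.90 on replicate 4, and the receptors and kinases and the macrophage markers stay below 0 on all 4 arrays.

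Markers of blood and immune cells did not follow this order. Of 27 with 4 values, none had replicate 3 lowest and replicate 4 highest, which is near the 5.32% of all genes. Of the same 27, 9 were higher on replicate 4 than on replicate 3, beside 49.9% of all genes. The median difference was -0.04, beside -2e-04 for all genes. The median ratio of the macrophage markers, with loess, was below 0 on every array, at -0.25, -0.25, -0.12 and -0.23. Of 8 tested, 5 were called lower, beside 13.1% of all genes. Among them were C1qa at -0.32 and Marco at -0.49, both named after their values were seen. Csf1r and Mpeg1, at -0.09 and -0.18, were not called. Cd68, also not called, was above 0 on every array, at 0.14 ± 0.05 (SD, n = 4 arrays). The mean macrophage marker level was between 11.02 and 11.12 in the wild type pools and between 10.80 and 10.92 in the hypomorph pools. The part of these markers in the lower Ifnar2, Irf3, Tlr7 and Usp18 was not tested.

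Other cell types were measured in the same way, with 13.7% of all genes called higher and 13.1% lower. Of the plasmacytoid dendritic cell markers, Siglech was well above background in no wild type and 1 hypomorph pool, and of the 4 tested, none called, Tcf4 and Spib had means of -0.11 and -0.10 and Klk1 and Ccr9 of 0.15 and 0.04. T and NK cell markers were dim, with mean levels from 7.23 to 7.46 in the wild type pools and from 7.31 to 7.53 in the hypomorph pools, and of 6 tested Lck was called higher at 0.31 and Cd3e was at 0.07. Of 3 B cell markers tested none was called, with Cd79b at 0.10 and Ms4a1 at -0.21. Of 4 leukocyte markers, Coro1a was called higher (0.30), and Ptprc was not called, at -0.30. Elane, a granulocyte marker, was not well above background on any array, and of 4 granulocyte markers tested none was called, with ratios of -0.70, 0.25, -0.08 and 0.18 for S100a8 and a mean of 0.08 for Ltf. Markers of lung epithelium were well above background, and of 4 tested Nkx2-1 was called higher at 0.19 and Sftpb was at 0.12. Endothelial markers were also well above background. Of 5 tested, Tek was called higher at 0.23, Kdr and Cdh5 were called lower at -0.29 and -0.23, and Emcn, at -0.08, was not called.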

How the data were processed

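Total RNA of 4 hypomorph and 4 wild type lung pools was labelled with Cy5 and Cy3. Per the submitters' processing notes, the scans were turned into spot values by Agilent Feature Extraction 9.5.1. The columns used are of 2 kinds: per the file headers, the deposited mean and local background intensities are uncorrected, and the processed intensities carry the scanner software's background subtraction and dye normalization. No fit used the deposited log10 ratio column, red over green. The deposited series table of log2 values equals log2 of processed red over green, with a correlation of 1 and column medians of -0.02, -0.0019, -0.05 and -0.02, so its scale and direction are settled.

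Mean intensities were corrected with normexp (offset 50) and normalized within arrays by loess (span 0.3) in limma 3.58.1, R 4.3.3. Control spots and spots marked as outliers were left out, and saturated spots (4 to 8 per array) were kept. A probe was tested if it had values on 3 or more arrays and if, on 3 or more, either channel was well above background. The mean log2 ratio was tested against 0 with lmFit and eBayes and Benjamini-Hochberg adjustment over 30008 probes, and a gene was read from its brightest probe. No count model was used. Printed pool levels were scaled between arrays with Aquantile. Per the labels the 4 pools of a genotype are biological replicates, and their number limits the precision. The fit was checked on simulated tables.

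The genes and pathway lists were chosen with earlier results of these data known. Named were all listed genes, up to 3 tested genes of each pathway list with the smallest p, the 2 brightest tested of each marker list, and genes said in the text to be chosen after their values were seen. Jak1, Ifngr2, Tyk2, Cgas, Tbk1, Rigi, Ticam1, Slfn2, Cxcl10, Ifnb1, Siglech, Klk1, Ccr9, Elane, Cd68, Cdh5 and Tek fall outside that rule and were also chosen after their values were seen. Irf5, Ifna9 and Ifnab, which the rule takes, are not described in the report. Of 55 probes, 49 matched a RefSeq accession.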

Additional observations from a re-analysis of the deposited data

Results flagged for a closer look

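The ratio of Oasl1 on replicate 3, 0.08, stood apart from the other 3 arrays, which read 0.38, 0.39 and 0.41. Its gap to the nearest of them, divided by the range of the 4 values, was above Dixon's critical value for 4 samples. It was the only value so marked among 33 genes and 6 role medians, and chance marks about 1 in 20 groups of 4.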

How the results depend on the processing

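Each array sets 1 pool of each genotype against the other, so the test of the ratios is already the paired analysis, and no further block could be added. The member probes called were 9, and 5 with the processed signals (18.4% of all probes), where 10 other pathway genes were called in place of 18 (20% of all genes). Median centring in place of loess gave 21 of 51 probes (19 higher, 2 lower), beside 49.4% of all probes. It gave 17 of 35 genes and 41 of 82 other pathway genes (38 higher, 3 lower), beside 53.1% of all genes. The median over the genes was 0.22, beside 0.13 for all genes. Leaving out 1 replicate gave 1 to 12 probes, 1 to 8 genes and 2 to 19 other pathway genes, with a median from -0.15 to 0.02. The lowest counts were without replicate 2, when 6.16% of all genes were called, and without replicate 3 there were 5 probes and 11 other pathway genes, beside 7.71% of all probes and 8.9% of all genes. The cause was not tested.

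Under median centring these means changed sign: Bst2 0.22, Ifi35 0.15, Ifih1 0.057, Ifit1 0.078, Ifit2 0.082, Ifnar2 0.016, Irf1 0.38, Irf8 0.20, Isg20 0.038, Mx1 -0.064, Oasl2 0.23, Rsad2 0.0083, Stat2 0.041, Trim25 0.41, Ifnab -1e-04, Irf2bp2 0.15, Lgals3bp 0.014 and Ptpn11 0.42. Other changes of sign were Mx1 at -0.0076 with processed signals, Irf7 at -0.0039 with marked spots kept, Ifnz at -0.13 with separate channels, and Irf1 at 0.031 and Parp14 at -0.11 with the mean of all probes. Leaving out 1 replicate in turn, the mean crossed 0 for 10 genes: Eif2ak2 (-0.025 to 0.084), Gbp3 (-0.20 to 0.26), Ifi27 (-0.069 to 0.24), Ifit1 (-0.23 to 0.025), Iigp1 (-0.18 to 0.28), Irf1 (-0.22 to 0.016), Irf7 (-0.0042 to 0.14), Mx1 (-0.058 to 0.067), Oasl2 (-0.19 to 0.046) and Parp14 (-0.060 to 0.20). The change of sign came without replicate 4 for Eif2ak2, Gbp3, Iigp1, Irf7, Mx1 and Parp14, without replicate 3 for Ifit1, Irf1 and Oasl2, and without replicate 2 or 4 for Ifi27.

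Of the 7 called genes, Ifitm1 alone was called in all 17 settings. Irf3 lost its call with median centring and without replicate 2 (adjusted p 0.0684) or 3 (0.0643), Ifnar2 with median centring and without replicate 2 (0.0563), and Ifitm2 with the mean of its probes and without replicate 2 (0.0618) or 3 (0.0519). Isg20 lost it with processed signals (0.059), with median centring and without replicates 2, 3 or 4 (0.0694 to 0.0954), and Usp18 had adjusted p-values up to 0.504.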

Other observations

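Within the other response genes, 3 groups named after their values were seen are not described above. The antigen-processing genes Psmb9, an immunoproteasome subunit, and Tap1, a peptide transporter, had ratios of 0.33, 0.47, 0.03 and 0.89 and of 0.31, 0.22, 0.04 and 0.64 on replicates 1 to 4. Both were above 0 on every array, with adjusted p-values of 0.057 and 0.061. The DNA-binding Ifi203, Ifi204 and Ifi205 had 1.05, 0.71 and 0.94 on replicate 4 and 0.06, -0.15 and 0.12 on replicate 3, and none was called. Trim12a and Trim34a, genes of the Trim family, had -0.69, -0.34, -0.63 and 0.06 and -0.46, -0.34, -0.47 and 0.16. They were lower in the hypomorph on replicates 1 to 3, with adjusted p-values of 0.061 and 0.108, and like Mx2 and Stat2 they stood above 0 only on replicate 4.

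The RefSeq gene Ifi27, printed on the array as D12Ertd647e, had ratios of -0.18, -0.0021 and -0.13 on replicates 1 to 3, with an adjusted p of 0.235.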
